A study of Mus musculus with 40 samples.

Results

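The genes described here are DNA repair, replication and damage checkpoint genes, taken from a targeted panel by their symbols. A probe was a member if its symbol began with RAD, MSH, LIG, RFC or RPA followed by a digit, or with XRCC, ERCC, FANC, BRCA, MLH, PARP, DDB, CHEK or GTF2H, or named a DNA polymerase subunit, or was ATM, ATR, PCNA, FEN1 or OGG1. This gave 37 of 3045 probes and 34 of 2756 genes, with 2 probes each for Rad51ap1, Pole and Xrcc1. The rule reads symbols only. Described here are 36 of these probes, from 33 genes, and 34 of the 36 had enough counts to be tested. The untested ones were Pcna, above 0 in 2 of 40 libraries, and the lesser Xrcc1 probe, above 0 in 1. Not every member is a repair gene in the strict sense: Polg2 belongs to the mitochondrial polymerase, Rad21 to cohesin, and Parpbp entered through the letters PARP although it encodes a protein that binds PARP1. Atm, Atr, Ogg1 and Ercc1 were not among the matching probes.

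The tissue was formalin-fixed, paraffin-embedded duodenum from wildtype males of B6C3F1, an F1 hybrid of laboratory mouse lines, exposed for 28 days. Control had 5 libraries. Each exposed group had 7: Cr(VI), the hexavalent form of chromium, given at 180 ppm in the drinking water, captan at 6000 or 12000 ppm in the diet, and folpet at 6000 or 16000 ppm in the diet. Of 10 comparisons, 5 set an exposed group against control, 2 set the doses of 1 fungicide against each other, 1 set captan against folpet at 6000 ppm, and 2 set Cr(VI) against captan at 12000 ppm and folpet at 16000 ppm. The assay, TempO-Seq, ligates 2 adjoining DNA probes where both have bound an RNA and counts the amplified product. The labels give neither the age of the mice nor whether every library came from its own animal, so the p-values describe variation among libraries, some of which may be technical. The title of the series asks about a non-genotoxic route to small intestine cancer.

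DNA repair works through several pathways that share parts with DNA replication. Base excision repair removes single damaged bases, nucleotide excision repair cuts out bulky lesions, mismatch repair corrects replication errors, and homologous recombination and end joining rejoin broken strands. Checkpoint kinases halt the cell cycle while this happens. In the intestinal epithelium most replication takes place in the crypts, where cycling cells transcribe replication and recombination genes. Which cells gave these transcripts in the present libraries, which also held other tissue, was not tested.

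Promoters of 3 members are shown to set the member that passed beside the one with the most counts and one that holds E2F matches. Of the 33 genes described, 26 matched the RefSeq promoter table of build GRCm38.p6, which gives 250 bases before and 50 after each start. Capitals mark matches to the CCAAT box (CCAAT) and to 3 spellings of the E2F site (TTTCCCGC, TTTGGCGC and TTTCGCGC), each searched on both strands. E2F is the factor family that switches on S phase genes. Pold4 passed against control, Xrcc1 had the most counts, and of the 3 shown Rfc3 alone held E2F matches; Pold4 and Xrcc1 held the CCAAT box only. They lie at chr19:4231643-4231942 on the plus strand, chr7:24546449-24546748 on the plus strand and chr5:151651159-151651458 on the minus strand.
Pold4: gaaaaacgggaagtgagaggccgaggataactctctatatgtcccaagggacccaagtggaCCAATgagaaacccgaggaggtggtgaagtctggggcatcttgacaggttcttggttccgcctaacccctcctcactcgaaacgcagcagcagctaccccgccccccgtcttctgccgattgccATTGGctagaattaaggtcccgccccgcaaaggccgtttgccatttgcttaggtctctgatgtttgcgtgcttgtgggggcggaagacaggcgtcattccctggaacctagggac
Xrcc1: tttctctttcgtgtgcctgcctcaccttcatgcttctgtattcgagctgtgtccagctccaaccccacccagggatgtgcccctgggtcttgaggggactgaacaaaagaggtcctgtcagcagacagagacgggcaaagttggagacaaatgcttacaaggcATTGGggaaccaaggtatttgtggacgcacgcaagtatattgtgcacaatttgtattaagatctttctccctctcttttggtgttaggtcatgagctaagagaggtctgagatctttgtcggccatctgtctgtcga
Rfc3: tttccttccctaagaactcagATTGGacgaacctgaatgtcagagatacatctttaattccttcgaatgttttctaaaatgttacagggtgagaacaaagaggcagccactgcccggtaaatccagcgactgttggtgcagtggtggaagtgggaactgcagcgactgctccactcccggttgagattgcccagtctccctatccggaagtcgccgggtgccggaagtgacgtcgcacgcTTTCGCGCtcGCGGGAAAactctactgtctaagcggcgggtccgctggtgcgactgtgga

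An E2F match was present in 7 of the 26 promoters (26.9%), those of Brca2, Chek2, Lig1, Msh6, Pole2, Rad51c and Rfc3, beside 4.25% of 2117 panel genes and 2.12% of all 27025 genes in the table. The CCAAT box was present in 15 of 26 (57.7%), beside 45.5% of panel genes. The antioxidant response element, searched as TGACNNNGC, was present in 6 of 26 (23.1%), beside 15.1% of panel genes, and in neither Pold4 nor Xrcc1. These matches describe letters in the window and were not tested as binding sites.

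Few of these genes differed between groups beyond the spread of the libraries. In 9 of the 10 comparisons none of the members described passed, and in the remaining one Pold4 alone did, higher in folpet at 16000 ppm than in control. Levels are CPM, counts scaled to a common library size after TMM correction. Differences are log2 fold changes with the standard error from edgeR's quasi-likelihood test. A probe passed when its p, adjusted by Benjamini and Hochberg's method across the 2541 tested probes, was under 0.05. Because probes differ in how well they capture a transcript, levels of different genes were not compared.

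Against control, 0 of 34 member probes passed in Cr(VI), where 5.94% of all tested probes did. The count was also 0 in captan at 6000 ppm (5.16% of all probes), captan at 12000 ppm (6.18%) and folpet at 6000 ppm (6.22%). In folpet at 16000 ppm 1 member passed, where 12.6% of all probes passed in either direction and 7.91% were higher. The dose steps gave 0 members for captan (0% of all probes) and 0 for folpet (1.73%), and captan against folpet at 6000 ppm gave 0 (0.157%). Cr(VI) gave 0 against captan at 12000 ppm (4.64%) and 0 against folpet at 16000 ppm (7.32%). In the same order of 10 comparisons, an unadjusted p under 0.05 was reached by 2, 1, 0, 1, 4, 1, 0, 0, 1 and 2 of the 34 probes, beside 20.3, 19.6, 20.7, 19.0, 24.8, 5.82, 10.5, 5.12, 17.1 and 19.2% of all probes. DESeq2 called 0 members in the same 9 comparisons and 2 in folpet at 16000 ppm against control.

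The median member shifted little. It was -0.19 in Cr(VI) against control, with 22 of 34 probes below 0, beside a median of -0.03 over all tested probes, 51.5% of which were below 0. The other medians against control were -0.07 in captan at 6000 ppm, 0.09 in captan at 12000 ppm, -0.19 in folpet at 6000 ppm and -0.11 in folpet at 16000 ppm. The 5 comparisons with control share the same 5 control libraries, so their values are not independent of each other. The summed level of the 36 probes ran from 781 to 1364 CPM in control, 949.7 to 1345 in Cr(VI), 998.7 to 1449 and 1029 to 1481 in the captan groups, and 1068 to 1219.5 and 1126 to 1397 in the folpet groups, so all groups overlapped.

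**Figure D1:**
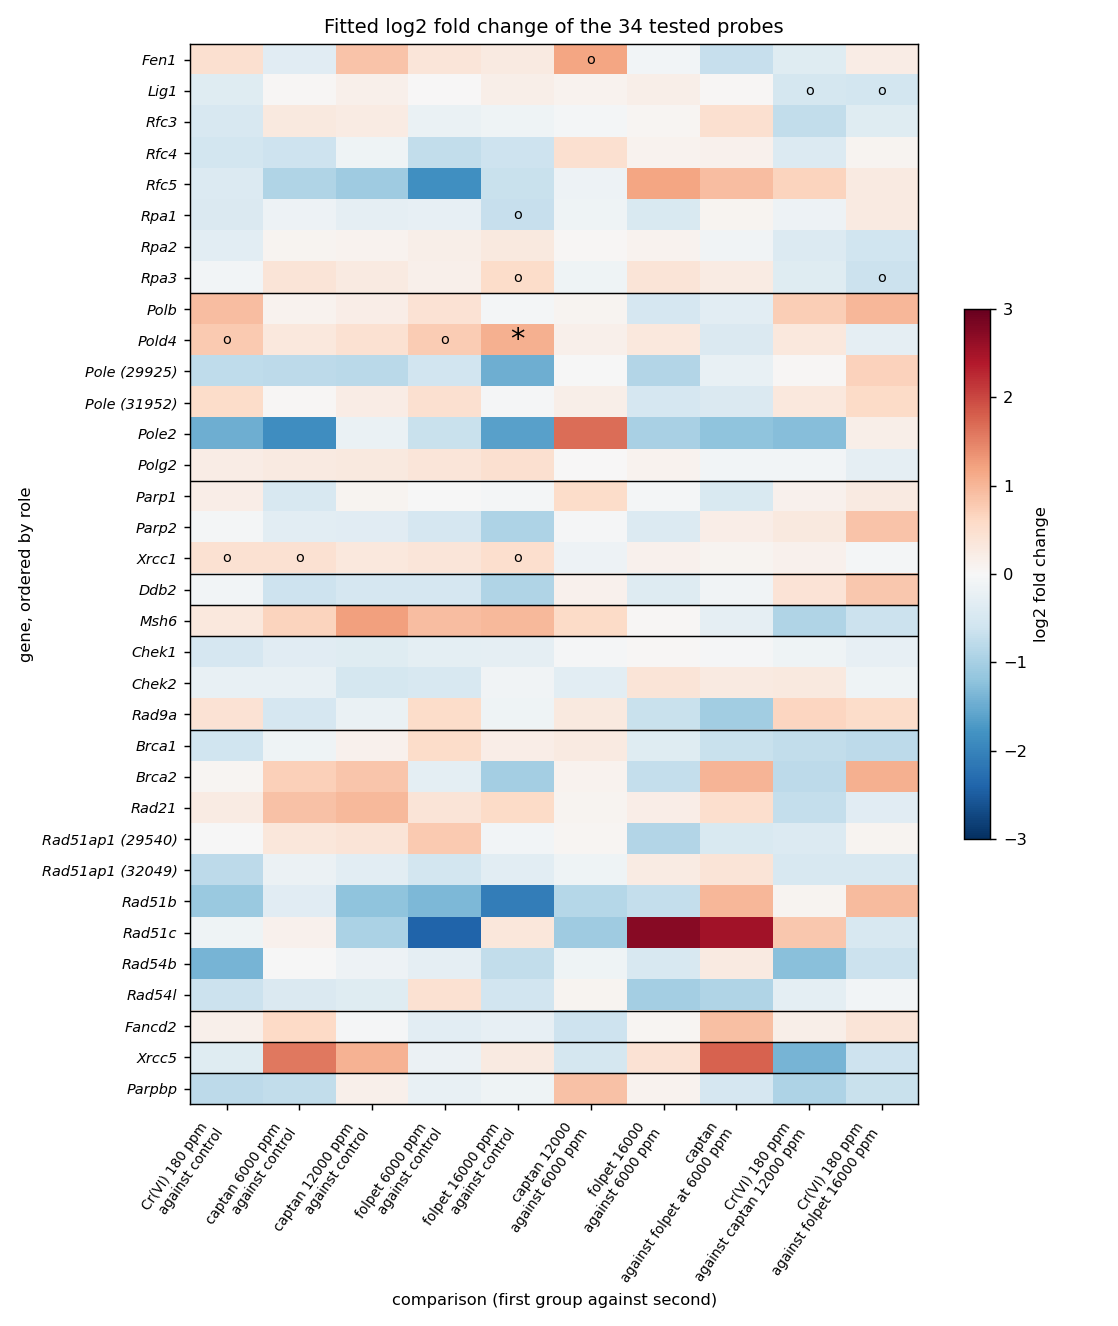
Fitted log2 fold change (colour, red higher and blue lower in the first group named) of the 34 tested member probes (rows, ordered by role) in the 10 comparisons (columns). Stars mark an adjusted p under 0.05 and circles an unadjusted p under 0.05; 1 cell carries a star, Pold4 in folpet 16000 ppm against control, and the deepest colours without a mark belong to probes with few counts such as Rad51c.

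The member that differed from control was a polymerase subunit. Pold4 encodes the small accessory subunit of DNA polymerase delta, the lagging strand polymerase, and its protein is known to be degraded on DNA damage. In the 5 control libraries it stood at 49.7, 30.8, 69.4, 55.4 and 9.91 CPM. In folpet at 16000 ppm the lowest of 7 libraries stood at 74.5, the median at 87.6 and the highest at 114 CPM. Every folpet 16000 ppm library therefore lay above every control library, a separation upward that 4.25% of all tested probes showed in this comparison. The means were 90.8 ± 13.3 CPM (SD, n = 7) and 43.0 ± 23.1 CPM (SD, n = 5), a log2 fold change of 1.06 ± 0.32 (95% interval 0.42 to 1.70; adjusted p = 0.0196).

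In the other exposed groups Pold4 overlapped control. Its median was 63.9 CPM in Cr(VI) (46.6 to 110.3), 53.5 in captan at 6000 ppm (37.2 to 73.5), 57.1 in captan at 12000 ppm (26.7 to 98.3) and 74.2 in folpet at 6000 ppm (56.8 to 95.4). Against control the log2 fold change was 0.79 ± 0.32 in Cr(VI) (adjusted p = 0.129) and 0.75 ± 0.32 in folpet at 6000 ppm (adjusted p = 0.164). It was 0.32 ± 0.31 and 0.46 ± 0.31 in captan at 6000 and 12000 ppm. The folpet dose step gave 0.31 (95% interval -0.26 to 0.87), so the doses were not separated.

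The Pold4 call rested in part on single control libraries and on the scaling. Without control library 5, which had the lowest value from 11 counts, the log2 fold change was 0.82 (adjusted p = 0.0632), and without control library 2 it was 0.97 (adjusted p = 0.0560). Without both, and without the Cr(VI) libraries 3 and 6 that also had fewer than 2000 probes above 0, it was 0.67 (adjusted p = 0.191), a setting chosen after seeing the data. With library totals in place of TMM it was 0.97 (adjusted p = 0.295), and in a fit limited to these 2 groups 1.10 (adjusted p = 0.0771). Markers of other cells moved with this comparison. The pancreatic acinar list took 17.0 to 67.6% of counts in control and 11.5 to 38.4% in folpet at 16000 ppm. The lymphocyte and myeloid list, 3 of 9 probes of which fell, summed to 8888 to 26649 CPM in control and 2398 to 6911 CPM in folpet at 16000 ppm. The smooth muscle list, 3 of 6 probes of which fell, summed to 1665 to 3126 and 1351 to 1583 CPM. The enterocyte list, 3 of 4 probes of which rose (Fabp1, Fabp2 and Apoa1), summed to 17139 to 60174 CPM in control and 68567 to 90802 CPM in folpet at 16000 ppm. With the acinar share as a covariate the Pold4 value was 0.91 (adjusted p = 0.0586), and without libraries of over 50% acinar counts 0.90 (adjusted p = 0.0644). The part of the other lists was not tested. In bulk tissue, fewer cells of a type and less RNA per cell cannot be told apart.

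The tested probes whose log2 CPM followed Pold4 most closely over the 40 libraries were Copb2 (Pearson r = 0.747), Pfn1 (r = 0.728) and Blvra (r = 0.724). These correlations share library depth and tissue composition and are a description.

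**Figure D2:**
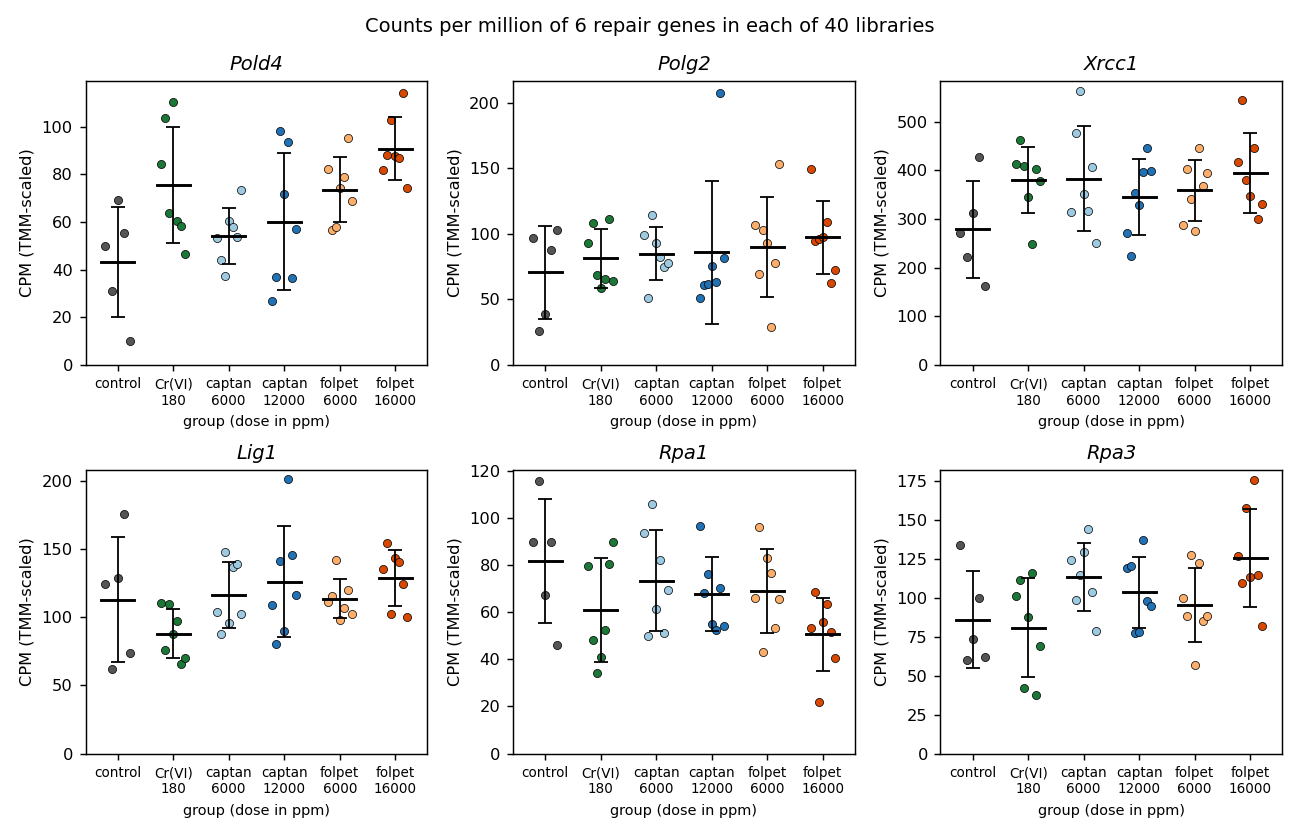
CPM on TMM-scaled library sizes (y axis, 1 scale per gene) of Pold4, Polg2, Xrcc1, Lig1, Rpa1 and Rpa3 in each of 40 libraries (points) by group (x axis, dose in ppm), with the mean (bar) and SD (whiskers). The 7 folpet 16000 ppm points of Pold4 lie above the 5 control points; the remaining pairs of groups discussed overlap.

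The other polymerase probes did not pass in any comparison. Polb, which fills the gap in base excision repair, had the highest fitted value of any member in Cr(VI) against control, 0.92 ± 1.06. Its libraries ran from 2.68 to 29.2 CPM in Cr(VI) and from 0 to 18.1 CPM in control. Pole2, an accessory subunit of the leading strand polymerase, had the lowest in captan at 6000 ppm against control, -1.87 ± 1.502, and was at 0 in 4 of those 7 libraries. It was also the lowest of the members described in Cr(VI) against control, -1.47 ± 1.49 (adjusted p = 0.693). Polg2, the accessory subunit of the mitochondrial polymerase, lay between 0.21 and 0.47 in the 5 comparisons with control. The 2 probes of Pole, the catalytic subunit, gave -0.77 and 0.55 in Cr(VI) against control (adjusted p = 0.811 and 0.882) and so did not have 1 direction.

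Homologous recombination copies an intact duplex to mend a break. Of the 9 recombination probes described, among which the cohesin gene Rad21 was placed, 7 had a fitted value below 0 in Cr(VI) against control. Among the 7 was the lesser Rad51ap1 probe, which hardly differed, with means of 5.84 CPM in Cr(VI) and 5.81 CPM in control. The median of the 9 was -0.59 beside -0.03 for all probes, and 0 passed in any of the 10 comparisons. Several of the 9 had many zeros: Rad51c was at 0 in 31 of 40 libraries, Brca2 in 22, Rad54l in 18 and Rad54b in 14. Cr(VI) libraries 3 and 6, each with 15 of the 34 tested members at 0, read 0 for each of these genes. The part of such zeros in the median was not tested. Brca1, which steers broken ends towards recombination, stood at 17.7, 0, 19.8, 3.19 and 0 CPM in control and at a median of 1.87 CPM in Cr(VI) (0 to 22.3), -0.59 ± 1.21. Its captan and folpet medians were between 6.25 and 12.9 CPM. It gave the lowest value of the members described in Cr(VI) against folpet at 16000 ppm, -0.79 ± 1.12. Brca2, a tumour suppressor of the same pathway, was above 0 in 18 of 40 libraries and gave 0.05 ± 1.94 in Cr(VI) against control. Brca2 had the highest fitted value in Cr(VI) against folpet at 16000 ppm, 1.07 ± 1.77.

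Rad51b and Rad51c, paralogs that act together in recombination, and Rad54l, a DNA motor protein, gave large fitted values from few reads. Rad51b was -2.07 ± 1.54 in folpet at 16000 ppm and -1.20 ± 1.53 in captan at 12000 ppm against control. Rad51c was above 0 in 9 of 40 libraries with 139 counts in all. Its fitted value was -2.41 ± 2.09 in folpet at 6000 ppm against control, where 1 of 7 libraries was above 0, and 2.74 ± 2.01 in the folpet dose step. Rad54l was -1.03 ± 1.73 in the folpet dose step. Each standard error is near the size of its change, and none passed. The 2 probes of Rad51ap1, a recombination accessory protein, gave -0.00 ± 1.15 and -0.79 ± 0.72 in Cr(VI) against control.

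Base excision and single-strand break repair held the member with the most counts. Xrcc1 is the scaffold that brings ligase and end-processing enzymes to single-strand breaks, and its main probe was above 0 in all 40 libraries. Control libraries stood at 270.1, 221, 313, 426 and 161 CPM. Medians were 403 CPM in Cr(VI) (249 to 463), 351 in captan at 6000 ppm (250.5 to 563), 353 in captan at 12000 ppm (224 to 446), 368 in folpet at 6000 ppm (275 to 446) and 381 in folpet at 16000 ppm (301 to 544). Each exposed median lay above 4 of 5 control libraries, and every exposed group overlapped control.

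None of the Xrcc1 differences passed. They were 0.45 ± 0.20 in Cr(VI) (adjusted p = 0.177), 0.46 ± 0.20 in captan at 6000 ppm (0.176), 0.31 ± 0.20 in captan at 12000 ppm, 0.36 ± 0.20 in folpet at 6000 ppm and 0.50 ± 0.20 in folpet at 16000 ppm (0.0888). In the fit of all 40 libraries the upper limits of the 95% intervals lay between 0.70 and 0.90, so a doubling lay outside them. Intervals were not computed for the other fits, whose values below were larger. Control library 4 was the highest of its group. Without it Xrcc1 passed in 3 comparisons: the values were 0.65 in Cr(VI) (adjusted p = 0.0436), 0.66 in captan at 6000 ppm (adjusted p = 0.0405) and 0.71 in folpet at 16000 ppm (adjusted p = 0.0139). With the acinar share as a covariate Xrcc1 passed in captan at 6000 ppm (0.68, adjusted p = 0.0451) and in folpet at 16000 ppm (0.67, adjusted p = 0.0155).

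Parp1, the main sensor of strand breaks among the poly(ADP-ribose) polymerases, stood at 20.0, 11.1, 8.55, 20.6 and 0 CPM in control. Its medians ran from 8.29 CPM in captan at 6000 ppm to 13.4 CPM in Cr(VI), and its 10 fitted values from -0.47 to 0.56. Parp2, a second such enzyme, had its lowest fitted value in folpet at 16000 ppm against control, -0.92 ± 0.54.

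The checkpoint kinases gave no difference that could be detected. Chek1, which acts mostly at stalled replication forks, stood at 19.1, 31.4, 19.2, 10.4 and 0 CPM in control, and the exposed medians ran from 10.5 CPM in Cr(VI) to 13.7 CPM in folpet at 6000 ppm. Chek2, which acts mostly at double-strand breaks, stood at 37.6, 33.7, 45.1, 37.4 and 0 CPM in control, with exposed medians from 21.0 CPM in folpet at 6000 ppm to 32.1 CPM in captan at 6000 ppm. Both kinases were at 0 in control library 5. In Cr(VI) against control the changes were -0.51 (95% interval -2.53 to 1.52) for Chek1 and -0.23 (-1.29 to 0.82) for Chek2. Rad9a, part of the clamp that activates the checkpoint, was above 0 in 30 of 40 libraries and gave 0.43 ± 1.41. These intervals include a doubling for Chek1 and Rad9a and do not for Chek2, whose interval reaches past a halving.

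**Figure D3:**
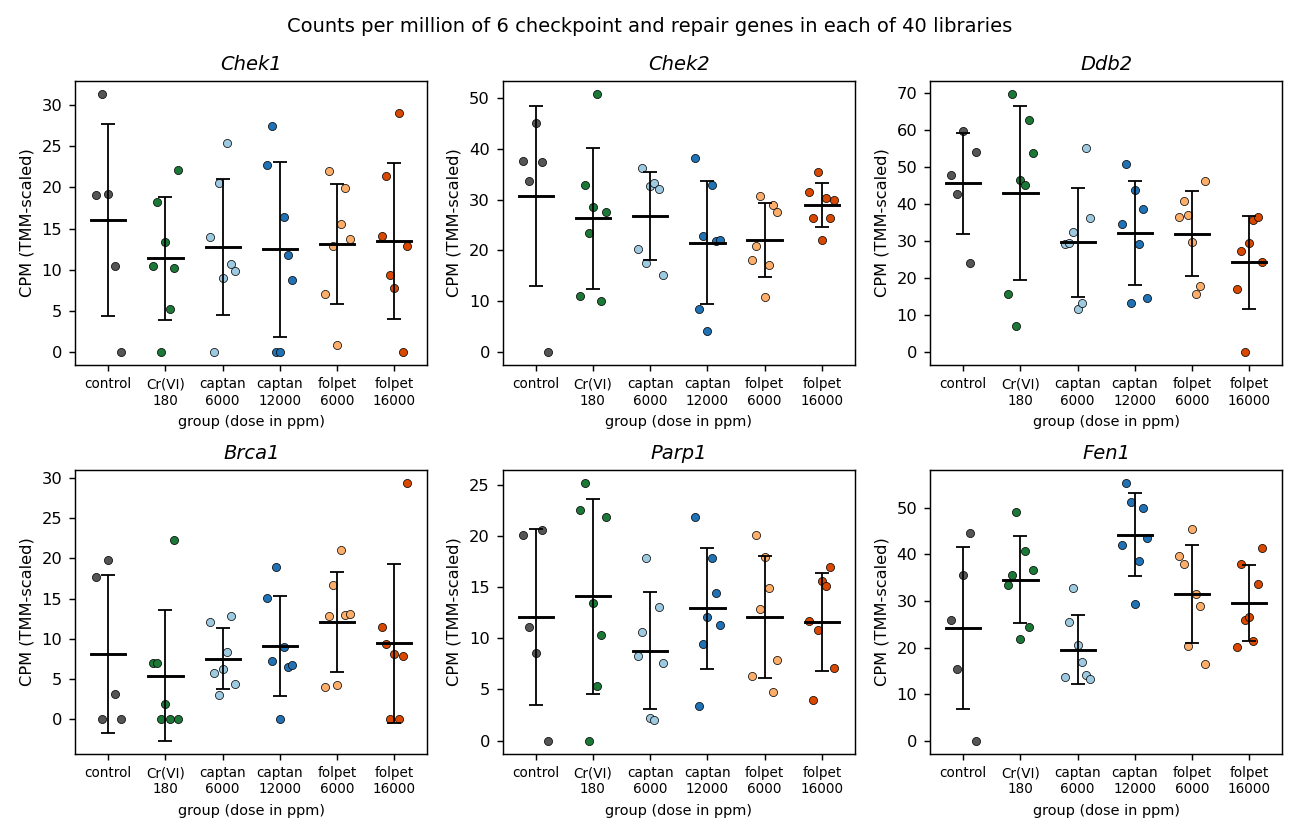
CPM on TMM-scaled library sizes (y axis, 1 scale per gene) of Chek1, Chek2, Ddb2, Brca1, Parp1 and Fen1 in each of 40 libraries (points) by group (x axis, dose in ppm), with the mean (bar) and SD (whiskers). Points at 0 occur in every panel and include control library 5 for Chek1, Chek2, Brca1, Parp1 and Fen1, and folpet 16000 ppm library 3 for Ddb2. The groups overlap in every panel for the comparisons with control.

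Ddb2, which recognises ultraviolet lesions for nucleotide excision repair and is a p53 target, stood at 47.8, 42.7, 59.7, 24.1 and 54.0 CPM in control. Its medians were 46.4 CPM in Cr(VI) (6.95 to 69.7), 29.4 and 34.7 in captan at 6000 and 12000 ppm, and 36.5 and 27.3 in folpet at 6000 and 16000 ppm. All groups overlapped control. The log2 fold change was -0.09 ± 0.55 in Cr(VI) and -0.91 ± 0.55 in folpet at 16000 ppm (adjusted p = 0.319).

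Msh6, which recognises mismatched bases, had the highest fitted value of any member in captan at 12000 ppm (1.24 ± 0.78) and in folpet at 6000 ppm (0.93 ± 0.77) against control, and neither passed. Xrcc5, the larger Ku subunit of end joining, had the highest in captan at 6000 ppm (1.58 ± 1.47). It stood at a median of 0 CPM in Cr(VI) (0 to 11.4) and 6.43 CPM in captan at 12000 ppm (1.93 to 15.5), and the difference, -1.41 ± 1.30 (adjusted p = 0.728), was the lowest of the members described in that comparison. The doses and the routes of exposure differ between these groups. Fancd2, the Fanconi anemia protein monoubiquitinated at crosslinks, lay between -0.31 and 0.59 in the 5 comparisons with control. Parpbp lay between -0.79 and 0.14 in them.

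Replication factors that repair also uses held 3 of the 5 probes whose interval in Cr(VI) against control lay inside 2-fold, Lig1, Rpa1 and Rpa3. Lig1, which seals nicks between Okazaki fragments, stood at 65.8 to 110.3 CPM in Cr(VI), with a median of 87.9, and at medians of 116 CPM in captan at 12000 ppm (80.7 to 202) and 135 CPM in folpet at 16000 ppm (101 to 155). The ranges overlapped. Cr(VI) gave -0.52 ± 0.20 against captan at 12000 ppm (adjusted p = 0.137) and -0.55 ± 0.20 against folpet at 16000 ppm (adjusted p = 0.0959). Against control, which stood at 125, 62.0, 129, 176 and 73.9 CPM, Cr(VI) gave -0.36 ± 0.22. With library totals in place of TMM the difference from captan at 12000 ppm was -1.22 and passed (adjusted p = 0.00919), a scaling under which the median of all probes in that comparison was -0.78.

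Rpa1 and Rpa3 are the large and small subunits of the complex that protects single-stranded DNA. Rpa1 stood at 89.6, 116, 67.3, 89.6 and 45.9 CPM in control and at a median of 53.3 CPM in folpet at 16000 ppm (21.7 to 68.4), -0.69 ± 0.28 (adjusted p = 0.0992). It passed without control library 5 (-0.84, adjusted p = 0.0431) and with DESeq2 (-0.78, adjusted p = 0.0384). Rpa3 went the other way in the same comparison, 0.54 ± 0.26 (adjusted p = 0.176), with 133.5, 60.1, 73.3, 99.7 and 62.1 CPM in control and a median of 115 CPM in folpet at 16000 ppm (81.6 to 175). Cr(VI) against folpet at 16000 ppm gave -0.63 ± 0.23 for Rpa3 (adjusted p = 0.0890). Rpa2, the middle subunit, gave 0.28 ± 0.57 in folpet at 16000 ppm against control.

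Fen1, the nuclease that trims Okazaki flaps, had the lowest unadjusted p of any member in a dose step. It stood at 13.3 to 32.8 CPM in captan at 6000 ppm (median 17.0) and at 29.3 to 55.4 CPM in captan at 12000 ppm (median 43.5), and 1 library of the higher dose lay inside the range of the lower. The log2 fold change was 1.18 ± 0.41 (unadjusted p = 0.00647, adjusted p = 0.563). Against control, at 25.8, 15.3, 35.6, 44.6 and 0 CPM, captan gave -0.33 ± 0.45 at 6000 ppm and 0.85 ± 0.46 at 12000 ppm. The clamp loader subunits Rfc3, Rfc4 and Rfc5 gave -0.49 ± 0.51, -0.54 ± 0.55 and -0.40 ± 1.57 in Cr(VI) against control. Pcna, the sliding clamp itself, could not be tested, and the probe for its near-identical copy Pcna-ps2 was above 0 in 26 libraries with 717 counts in all.

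Captan and folpet both carry a trichloromethylthio group on the nitrogen of a cyclic imide, which is joined to a cyclohexene ring in captan and to a benzene ring in folpet. At 6000 ppm, the dose they share and the 1 pair compared, no member passed and none had an unadjusted p under 0.05. The difference, captan against folpet, was 0.09 for Xrcc1 (95% interval -0.27 to 0.45), 0.03 for Lig1 (-0.37 to 0.44), 0.09 for Rpa1 (-0.43 to 0.61), 0.25 for Rpa3 (-0.22 to 0.71) and -0.09 for Polg2 (-0.69 to 0.51), so these 5 probes differed by less than 2-fold. For the remaining probes the interval reached beyond 2-fold, by little for Pold4 (-0.44, adjusted p = 1), and the data do not show that the fungicides act alike on them. The largest fitted values were 2.53 ± 2.005 for Rad51c and -1.20 ± 1.39 for Pole2, both from few counts.

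What these data could have shown differs by gene. The interval lay inside 2-fold in either direction for 5 of 34 probes in Cr(VI), 6 and 5 in captan at 6000 and 12000 ppm, and 4 and 2 in folpet at 6000 and 16000 ppm, all against control. In Cr(VI) they were Lig1, Polg2, Rpa1, Rpa3 and Xrcc1. The median interval against control reached 2.05 to 2.08 log2 units to either side of the fitted value. The biological coefficient of variation was 0.257 for Xrcc1, 0.367 for Pold4, 1.10 for Chek1 and 3.69 for Rad51c, beside a median of 0.557 over all tested probes.

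**Figure D4:**
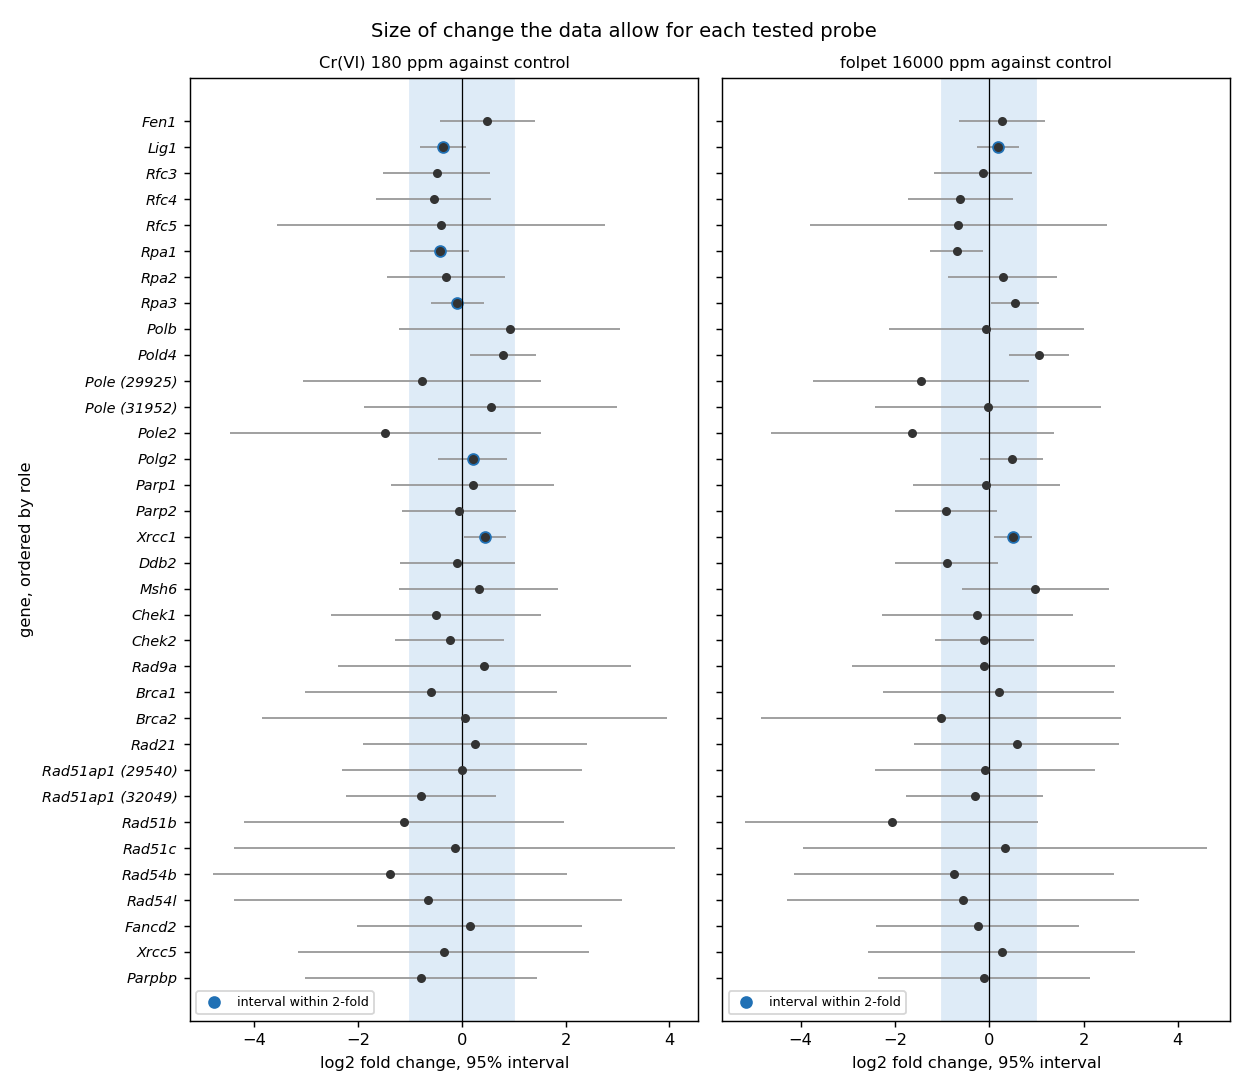
Log2 fold change against control (x axis) with its 95% interval for the 34 tested member probes (rows, ordered by role) in Cr(VI) at 180 ppm (left) and folpet at 16000 ppm (right); the shaded band marks 2-fold in either direction. Intervals of 5 probes in Cr(VI) and 2 in folpet stay inside the band, and the Pold4 interval in folpet runs from 0.42 to 1.70.

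Depth differed between libraries. Library totals lay between 1763440 and 7904819 counts, and acinar transcripts took up to 73.4% of them, which leaves fewer reads for other genes. Control libraries 2 and 5 had 11 and 20 of the 34 tested probes at 0, and Cr(VI) libraries 3 and 6 had 15 each; the other 36 libraries had at most 9. Of all deposited values 28.5% were 0, and 1.01% of values above 0 lay from 1 to 5. The enterocyte markers Fabp1, Fabp2, Apoa1 and Slc2a2 summed to 17139 to 96727 CPM, with the lowest value in control library 5, and so were present in every library.

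**Figure D5:**
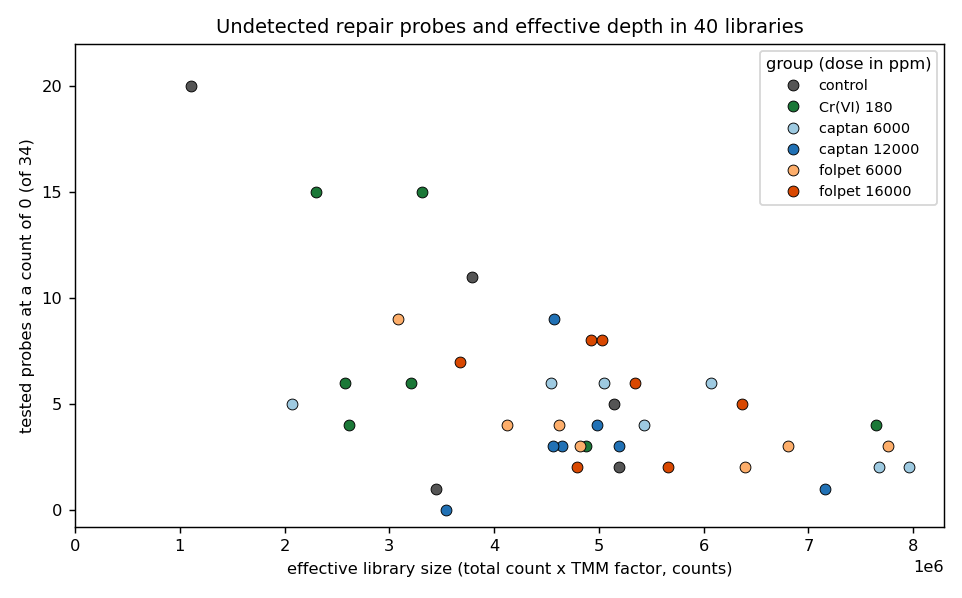
Number of the 34 tested member probes at a count of 0 (y axis) against effective library size, the total count times the TMM factor (x axis, counts), for the 40 libraries coloured by group. The 4 libraries with 11 or more probes at 0 are control 2 and 5 and Cr(VI) 3 and 6; control 5, with 20, also has the smallest effective size.

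Genes around the members were read from lists of repair, p53 and replication genes outside the member rule. Their calls were read under 8 alternatives beside the leaving out of single libraries: DESeq2, its size factors, library totals, no filter, a fit limited to the compared groups, the acinar share as a covariate, removal of libraries of over 50% acinar counts, and removal of those with fewer than 2000 probes above 0 (the last chosen after seeing the data). Most of these calls were lost under several of the 8.

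Of 36 tested probes of other repair and checkpoint genes, 3 passed in Cr(VI) against control, all lower, where 5.94% of all tested probes passed in either direction. These were Timeless, which stabilises replication forks (-0.95 ± 0.27, adjusted p = 0.0241), H2ax, the histone phosphorylated around breaks (-0.74 ± 0.24, adjusted p = 0.0494), and Rrm1, the large subunit of ribonucleotide reductase (-0.56 ± 0.18, adjusted p = 0.0454). The list's median was -0.18, beside -0.03 for all probes. Without libraries of over 50% acinar counts the values were -0.46 for Timeless (adjusted p = 0.545), -0.47 for H2ax (adjusted p = 0.392) and -0.24 for Rrm1 (adjusted p = 0.700). Without those of fewer than 2000 probes above 0 Timeless stood at -0.42 (adjusted p = 0.584) and Rrm1 at -0.43 (adjusted p = 0.331). With library totals and in the fit limited to the compared groups all 3 calls were lost at values near those above, -1.03 and -0.91 for Timeless, -0.89 and -0.70 for H2ax, and -0.66 and -0.52 for Rrm1. H2ax and Rrm1 were also lost with no filter. The Timeless call was lost without control library 2 or 5 or Cr(VI) library 3. The H2ax call held only without control library 5 or Cr(VI) library 2 or 6, and the Rrm1 call only without control library 1 or Cr(VI) library 4 or 5.

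Markers of other cells moved with the comparison of Cr(VI) with control. The lymphocyte and myeloid list, of which Cd74 and Gzma fell among 9 probes (-1.95 and -2.62), summed to 8888 to 26649 CPM in control and 3426 to 7362 CPM in Cr(VI). In the smooth muscle list Flna fell among 6 probes (-1.63), and the sums were 1665 to 3126 and 1346.5 to 1934 CPM. In the enterocyte list Apoa1 and Fabp1 rose among 4 probes (1.13 and 0.69), and the sums were 17139 to 60174 and 59870 to 79532 CPM. The acinar list took 17.0 to 67.6% of counts in control and 2.69 to 73.4% in Cr(VI). The part of the lymphocyte, muscle and enterocyte lists in the Cr(VI) values was not tested.

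Rrm1 was also lower in Cr(VI) than in captan at 12000 ppm (-0.57, adjusted p = 0.0281) and than in folpet at 16000 ppm (-0.60, adjusted p = 0.0117), where 4.64 and 7.32% of all probes passed. The first of these passed under 3 of the 8 alternatives and was lost without captan 12000 ppm library 7 or Cr(VI) library 1, 3 or 7. The second passed under 5 of the 8 and was lost without Cr(VI) library 3 or folpet 16000 ppm library 1.

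In folpet at 16000 ppm 1 of the 36 was higher than control, where 12.6% of all probes passed. Cdk7, a kinase of the transcription and repair factor TFIIH, gave 0.55 ± 0.19 (adjusted p = 0.0446). It passed under 2 of the 8 alternatives, and of single libraries held only without control library 3 or 4 or folpet 16000 ppm library 4, 6 or 7. In both captan groups and in folpet at 6000 ppm 0 of 36 passed against control, with 2, 2 and 3 at an unadjusted p under 0.05.

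The list of p53 and its targets took in Gadd45a, Gadd45b and Gadd45g. Whether each listed gene answers to p53 in this tissue was not tested. Of its 21 probes, 0 passed in Cr(VI) against control (2 at an unadjusted p under 0.05) and 0 in captan at 12000 ppm (3). Folpet at 6000 ppm had 2 higher than control, where 6.22% of all probes passed: Cdkn1a, the cyclin-dependent kinase inhibitor p21 (488 against 290.5 CPM, 0.75 ± 0.18, adjusted p = 0.00565), and Btg2, an antiproliferative gene (0.80 ± 0.22, adjusted p = 0.0203). The Cdkn1a call held without any single library and under 7 of the 8 alternatives, and was lost with library totals. The Btg2 call passed under 4 of the 8 and was lost without control library 4. Of the cell marker lists, Cd74 (-1.26), Acta2 (-0.92) and Flna (-1.84) fell and Apoa1 (1.10) rose in folpet at 6000 ppm against control. Their part in these calls was not tested. Btg2 was also lower in captan than in folpet at 6000 ppm (-0.99 ± 0.20, adjusted p = 0.00867) and lower at 16000 than at 6000 ppm of folpet (-0.87 ± 0.20, adjusted p = 0.0124). Both held without any single library and were lost with library totals (adjusted p = 0.630 and 0.185).

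At 16000 ppm of folpet 3 of these 21 differed from control, a share near the 12.6% of all probes. Cdkn1a (0.57 ± 0.18, adjusted p = 0.0316) and the stress kinase Plk3 (0.90 ± 0.31, adjusted p = 0.0448) were higher and Sesn1, a p53 target of the sestrin family, was lower (-1.28 ± 0.39, adjusted p = 0.0201). Of the 8 alternatives, Cdkn1a passed under 4, Plk3 under 3 and Sesn1 under 5, and all 3 were lost with library totals. The Cdkn1a call was lost without control library 1, 3 or 4 or folpet 16000 ppm library 4 or 7, and the Sesn1 call without control library 1 or 2. The Plk3 call held only without control library 2 or folpet 16000 ppm library 2 or 5. Sesn1 was also lower at 16000 than at 6000 ppm of folpet (-1.45 ± 0.36, adjusted p = 0.0217), a call lost with library totals and without folpet 6000 ppm library 2 or 4 or folpet 16000 ppm library 1 or 5.

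In captan at 6000 ppm Gadd45g, a growth arrest gene, was lower than control (-1.51 ± 0.38, adjusted p = 0.00994), where 5.16% of all probes passed. With the acinar share as a covariate the value was -0.45 (adjusted p = 0.718), without libraries of over 50% acinar counts -0.28 (adjusted p = 0.848) and with library totals -0.77 (adjusted p = 0.319). The call was also lost in the fit limited to the compared groups, without libraries of fewer than 2000 probes above 0 and without control library 5. Of the cell marker lists, Cd74 (-1.25), Acta2 (-0.84) and Flna (-1.64) fell and Apoa1 (0.91) rose in captan at 6000 ppm against control. Their part was not tested. Trp53, which encodes p53, was lower in Cr(VI) than in captan at 12000 ppm (-0.64 ± 0.19, adjusted p = 0.0311) and than in folpet at 16000 ppm (-0.63 ± 0.19, adjusted p = 0.0240). The first Trp53 call passed under 5 of the 8 alternatives and was lost without captan 12000 ppm library 5, 6 or 7 or Cr(VI) library 2, 3, 6 or 7. The second passed under 4 and was lost without Cr(VI) library 2 or 3 or folpet 16000 ppm library 3 or 5.

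Of the replication and mitosis list, 3 of 31 tested probes passed in Cr(VI) against control, all lower, beside the 5.94% of all probes. They were the helicase subunit Mcm7 (81.8 against 194 CPM, -1.24 ± 0.27, adjusted p = 0.00224), the mitotic kinase Plk1 (-1.14 ± 0.30, adjusted p = 0.0117) and the cyclin Ccna2 (-0.84 ± 0.21, adjusted p = 0.00648). The other tested probe of Ccna2 did not pass in any comparison. The list's median was -0.62, beside -0.03 for all probes. Its probes summed to 1325 to 1767 CPM in control and 723 to 1123 CPM in Cr(VI), so these 2 groups did not overlap. The sums include the 3 probes that passed, so they are not separate from those calls. Besides Mcm7, the means in Cr(VI) and control were 37.67 and 83.65 CPM for Plk1 and 159 and 285 CPM for Ccna2. How often sums of other probes separate these groups was not computed. The cause of the difference was not tested. With library totals the calls were lost at values of similar size, -1.23 for Mcm7, -1.17 for Plk1 and -1.04 for Ccna2, and so they were in the fit limited to Cr(VI) and control, at -1.19, -1.10 and -0.79. The values themselves moved when libraries were removed. Without those of over 50% acinar counts they were -0.80, -0.58 and -0.61, and without those of fewer than 2000 probes above 0 they were -0.50, -0.87 and -0.44, and none passed. The Plk1 and Ccna2 calls were also lost without control library 5.

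Mcm7 was also lower in captan at 6000 ppm than in control (-0.95 ± 0.27, adjusted p = 0.0229). This call passed under 3 of the 8 alternatives. The value was -0.44 with library totals, -0.62 without libraries of over 50% acinar counts and -0.53 without those of fewer than 2000 probes above 0, with no call in any of them. The call was also lost with the acinar share as a covariate and in the fit limited to the compared groups (-0.95, adjusted p = 0.147). Of single libraries, it was lost without control library 5 or captan 6000 ppm library 3. Cr(VI) had lower Plk1 than captan at 12000 ppm (-0.99 ± 0.28, adjusted p = 0.0244) and lower Ccna2 than folpet at 16000 ppm (-0.63 ± 0.19, adjusted p = 0.0265), each passing under 4 of the 8 alternatives. The Plk1 call was lost without captan 12000 ppm library 6 or 7 or Cr(VI) library 3, 6 or 7, and the Ccna2 call without Cr(VI) library 3, 6 or 7 or folpet 16000 ppm library 2 or 4.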

How the data were processed

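The deposited values are raw counts, whole numbers for each probe in each library. Bowtie, the build mm9 and bcl2fastq 2.17.1.14 are listed, with no role given, per the submitters' processing notes. Treatment labels gave the groups; library numbers are names in accession order and pair nothing. Symbols were put in mouse case through the RefSeq table. With R 4.3.3 and edgeR 4.0.16, filterByExpr (counts of at least 10, total of at least 15) left 2541 probes, and TMM and a robust quasi-likelihood fit used all 40 libraries, 1 mean for each group and 34 residual degrees of freedom. Tests were 2-sided. The standard error is the size of the log2 fold change over the root of F, an approximation, and 95% intervals rest on it. Log2 CPM used a prior count of 2. The code was run on counts simulated with the fitted spread of each probe. Such a run cannot show how well the model holds for these data. No molecular identifiers are mentioned, so counts may include PCR copies.

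The members and lists were chosen with earlier results of these data known. By the naming rule, members that passed, a set of core repair genes and the highest and lowest fitted value in each comparison were named; further members complete a role and were added after their values were seen. Results on a few genes, 1 matching member probe among them, are not reported here, and counts of members and list probes leave them out; they stayed in the fit and in the adjustment. Every reported probe of the other repair, p53 and replication lists that passed is named. Alternatives were DESeq2 1.42.0 and its size factors, library totals, no filter, fits of 2 groups, the acinar share as a covariate, and leaving libraries out.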

Additional observations from a re-analysis of the deposited data

Results flagged for a closer look

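Among the 96 groups of libraries checked for 16 named probes, 19 held a library whose log2 CPM stood far from the rest of its group (chance flags about 1 in 20 groups of regular values, a rate that does not carry over to readings of 0 or to probes named for extreme fitted values). In 15 of these the library read 0 CPM and stood below its group. Control library 5 did so for Fen1, Chek1, Parp1 and Chek2, with the nearest control at 15.3, 10.4, 8.55 and 33.7 CPM. Cr(VI) library 3 did so for Chek1 and Parp1, with neighbours at 5.23 and 5.36 CPM, and Cr(VI) library 6 for Msh6 (9.35 CPM). The others at 0 were Xrcc5 in captan 6000 ppm library 5 (neighbour 5.55 CPM) and folpet 16000 ppm library 7 (2.72), Brca1 in captan 12000 ppm library 4 (6.57), Chek1 in captan 6000 ppm library 2 (8.99) and folpet 16000 ppm library 6 (7.77), Ddb2 in folpet 16000 ppm library 3 (17.1), Polb in folpet 16000 ppm library 1 (4.31) and Pole2 in folpet 6000 ppm library 5 (3.09).

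Low without being 0 was Chek1 in folpet 6000 ppm library 4 (0.866 CPM, neighbour 7.09). Rad51c stood high in control library 4 (4.64 CPM), captan 12000 ppm library 7 (3.39 CPM) and folpet 6000 ppm library 1 (1.03 CPM), the single library of each group above 0.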

How the results depend on the processing

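No called value changed sign under any alternative tried. In folpet at 16000 ppm against control the count of members called was 1; it was 0 with library totals alone, 0 with only the compared groups, 0 without libraries of over 50% acinar counts, 0 without libraries of under 2000 probes above 0 (chosen after seeing the data) and 2 with DESeq2, and 0 to 2 with 1 library left out (0 without control 2, 2 without control 4). Without control 5 the 1 call was Rpa1, and with the acinar covariate it was Xrcc1. In Cr(VI) against captan at 12000 ppm the count was 0, and 1 (Lig1) with library totals alone. In captan at 6000 ppm against control the count was 0, 1 with the acinar covariate and 0 to 1 with 1 library left out (1 without control 4). In Cr(VI) against control it was 0 and 0 to 1 with 1 library left out (1 without control 4). The other 6 comparisons gave 0 under every alternative. The cause of these changes was not tested, except that leaving out libraries or groups leaves fewer samples. Library totals alone moved the median of all probes to -0.30 in Cr(VI), 0.33 and 0.44 in captan and 0.28 in folpet at 6000 ppm against control, and to -0.78 in Cr(VI) against captan at 12000 ppm. Over all probes, calls against control in Cr(VI), captan at 6000 and 12000 ppm and folpet at 6000 and 16000 ppm numbered 151, 131, 157, 158 and 320, against 14, 32, 79, 51 and 57 with library totals alone, 28, 29, 29, 77 and 205 with only the compared groups, and 231, 213, 259, 225 and 393 with DESeq2. In the folpet dose step they numbered 44, against 9, 113 and 72 under the same 3 settings, and in Cr(VI) against captan at 12000 ppm 118, against 504, 86 and 185. No paired analysis was possible because the labels give no replicate numbers. Zeros did not follow depth alone: captan 6000 ppm library 2, with an effective size of 2073500 counts, had 5 tested members at 0, and control library 2, with 3793000, had 11; the cause was not tested. A count of 0 allows up to 3 counts, which is 0.377 to 2.70 CPM depending on the library and covers counting error only.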
